A study of Mus musculus with 2 samples.

Results

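The genes described here code for the proteasome, the protease of the cytosol and nucleus that degrades ubiquitylated proteins, and for the proteins that activate, inhibit or assemble it. They were taken as the protein-coding genes of mm9 in the GENCODE annotation whose symbols begin with Psma, Psmb, Psmc, Psmd, Psme, Psmf or Psmg followed by a number. This gave 50 of 22235 protein-coding genes. Of these, 48 code for proteasome proteins. *Psmc3ip* shares only the symbol and codes for a factor of meiotic recombination, and *Psme2b-ps* is annotated as protein-coding although its symbol marks it as a pseudogene copy of *Psme2*. All 50 are called proteasome genes in what follows.

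E14 is a line of mouse embryonic stem (ES) cells, here labelled as C57BL/6 and grown with serum and LIF without further treatment. Its chromatin was precipitated with anti-ZNF322 antibody (Zfp322a ChIP) or with anti-rabbit IgG as the control. Apart from the antibody the 2 libraries had no stated difference. There was 1 library for each antibody, so no difference given here has a replicate check, and each p-value compares these libraries and not conditions. The Zfp322a library held 4151151 reads of mapping quality 25 or more and the IgG library 3877802, a ratio of 1.07. The libraries are genomic DNA, so marker RNA of ES cells was not measured and the cell label could not be checked in them.

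The catalytic core of the proteasome is a barrel of alpha rings and beta rings, with the protease sites on beta subunits. A regulatory particle caps the barrel: its ring of ATPases unfolds the substrate and its non-ATPase subunits bind and remove ubiquitin. Other activators open the barrel without ATP. Immune-inducible beta subunits replace the standard ones in cells exposed to interferon, and ES cells have been described as rich in proteasome activity.

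For each gene the reads of mapping quality 25 or more were counted from -1000 to 1000 bp around 1 transcription start site (TSS), that of the protein-coding transcript with the longest coding sequence. The promoters of the 4 genes with the lowest adjusted p in this count are shown here. Each run gives 150 bases upstream of the TSS and the first 30 bases of the transcript in mm9, the TSS being the first of these 30. Capitals mark matches, on either strand, to CCAAT (the box bound by NF-Y), CCGGAAG (an ETS core), TGACNNNGC or TGAGNNNGC (the core of the antioxidant response element), AANATGGCG (the core of the YY1 motif) or GCATGCGC (a core of the motif of nuclear respiratory factor). AANATGGCG was chosen as the core of the third motif of the study. The study found that motif in its Zfp322a sites and describes it as similar to the Oct4/Sox2 motif.
Psmd3 (chr11:98543718-98543897, plus strand): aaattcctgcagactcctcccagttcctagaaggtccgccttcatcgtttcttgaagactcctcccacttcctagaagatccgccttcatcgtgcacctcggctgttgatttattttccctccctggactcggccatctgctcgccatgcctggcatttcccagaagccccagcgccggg
Psma3 (chr12:72075458-72075637, plus strand): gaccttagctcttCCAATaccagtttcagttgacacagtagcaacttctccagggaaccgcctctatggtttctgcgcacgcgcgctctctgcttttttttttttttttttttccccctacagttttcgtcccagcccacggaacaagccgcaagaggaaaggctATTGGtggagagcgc
Psmd14 (chr2:61549601-61549780, plus strand): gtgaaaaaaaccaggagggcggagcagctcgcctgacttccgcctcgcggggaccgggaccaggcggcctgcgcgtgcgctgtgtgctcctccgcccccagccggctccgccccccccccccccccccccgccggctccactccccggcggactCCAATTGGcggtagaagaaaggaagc
Psmd8 (chr7:29965663-29965842, minus strand): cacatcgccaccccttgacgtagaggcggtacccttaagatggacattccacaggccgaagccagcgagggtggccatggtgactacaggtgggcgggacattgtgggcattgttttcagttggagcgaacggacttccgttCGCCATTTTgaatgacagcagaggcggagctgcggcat
No match was common to all 4 promoters: the run of *Psmd3* held none, those of *Psma3* and *Psmd14* held CCAAT, and that of *Psmd8* held AANATGGCG, ending at the TSS.

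Reads were more numerous in the Zfp322a library than in the IgG library at 44 of the 50 genes. Divided by the library totals, they were so at 43 of the 48 genes with at least 10 reads (89.6%), against 73.9% of all protein-coding genes with as many. In the other gene sets described below the share was similar. It was 89.0% for the cytosolic ribosomal protein genes (73 of 82) and 91.2% for the genes around the proteasome (31 of 34). Over the 50 proteasome genes the lowest, median and highest counts were 0, 20 and 67 in the Zfp322a library and 2, 10 and 20 in the IgG library. The IgG library had more reads at *Psmc2* and *Psme2b-ps*, and the counts were equal at *Psma6*, *Psmc1*, *Psme4* and *Psmf1*. The fold per read, the Zfp322a count divided by the IgG count after each is divided by its library total, was compared with 1 by the two-sided exact conditional binomial test and adjusted by Benjamini-Hochberg over the 15882 protein-coding genes with at least 10 reads in both libraries together. With this filter 48 genes were tested, 47 of them coding for proteasome proteins, while *Psmd10* and *Psme2b-ps* had too few reads. Of these 48, 8 were called higher in Zfp322a ChIP at an adjusted p under 0.05, or 16.7%, against 5.13% of all genes tested. These were *Psma1*, *Psma3*, *Psma5*, *Psmc5*, *Psmc6*, *Psmd3*, *Psmd8* and *Psmd14*. None was called lower by this test, against 0.0567% of all genes tested, and at an unadjusted p under 0.05 the counts were 16 higher (33.3%, against 17.4% of all genes tested) and 0 lower (141 of all genes tested). The median fold per read was 1.65 over the proteasome genes tested and 1.401 over all genes tested.

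**Figure D1:**
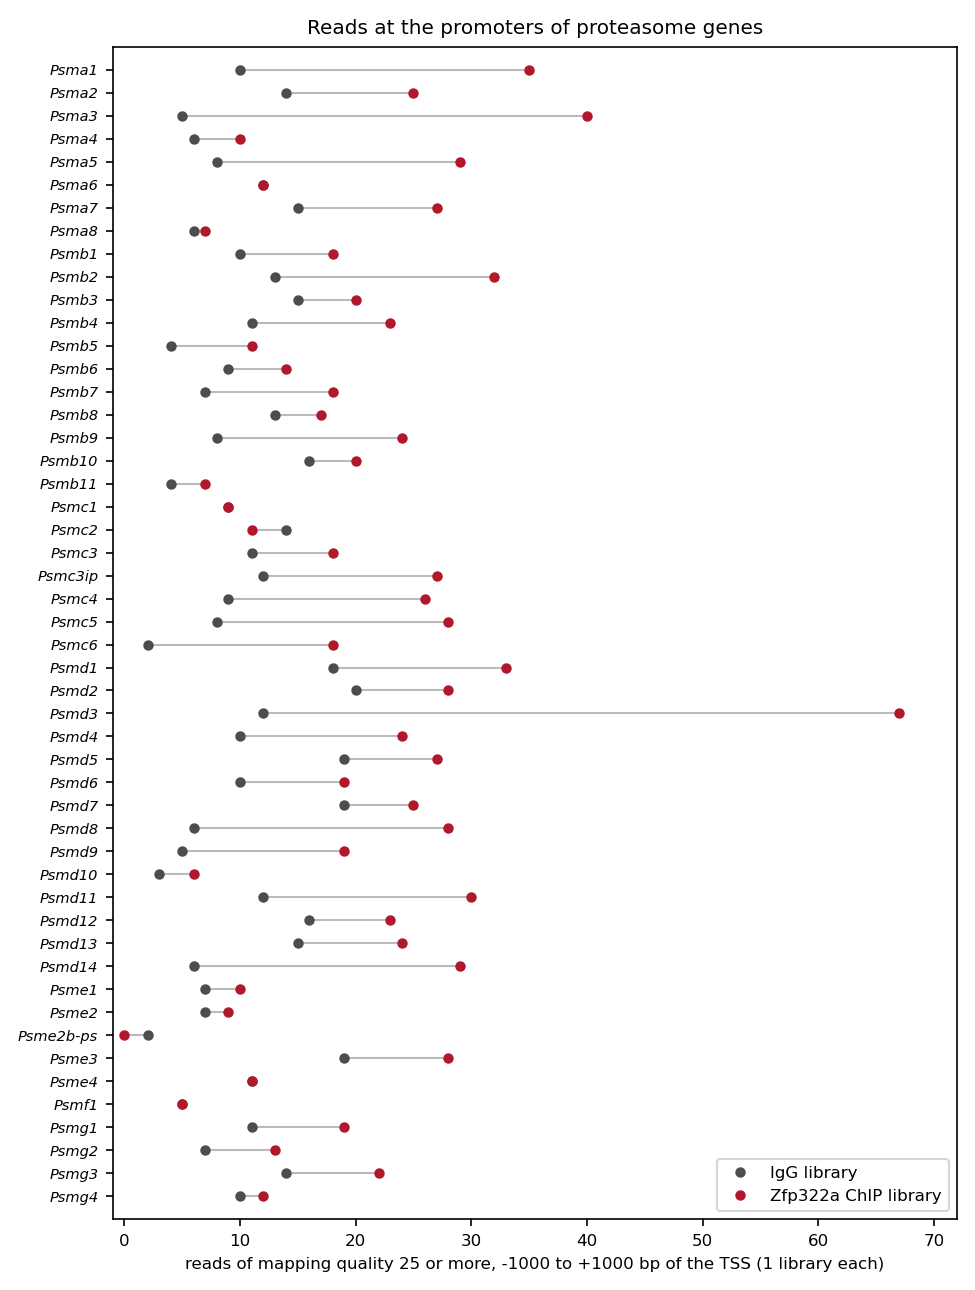
Reads in each library at the 50 proteasome genes, from -1000 to 1000 bp around the TSS, with grey points for IgG and red points for Zfp322a ChIP (1 library each; where only red shows, the counts are equal). The widest gap is at *Psmd3*, with 67 Zfp322a and 12 IgG reads.

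The level that these folds are read against matters, because reads at promoters in general were more numerous in the Zfp322a library. Over the windows of all protein-coding genes the summed fold per read was 1.42 (log2 0.50), and over those of the proteasome genes, with 1037 Zfp322a and 515 IgG reads, it was 1.88 (exact 95% interval 1.69 to 2.10, counting error only). When counts were scaled by the reads in all these windows in place of the library totals, 2 proteasome genes were called higher, *Psma3* and *Psmd3*, and the median fold was 1.17 over the 48 proteasome genes tested and 0.990 over all genes tested. Of all genes tested, 0.390% were then called higher, 62 higher and 13 lower, where library totals gave 814 and 9. In windows of -1000 to 100 bp, with library totals, *Psmd3* was the only proteasome gene called higher, against 2.14% of all genes tested. The number of reads in a window also sets what the test can find. Among genes with 30 to 39 reads in both libraries together, 4 of 17 proteasome genes were called higher against 5.39% of all such genes, and with 40 to 49 reads 2 of 9 against 11.7%. With 50 reads or more, 1 of 2 was called, *Psmd3*, against 31.2%. With 20 to 29 reads 1 of 12 was called against 1.68%, and with 10 to 19 reads 0 of 8 against 0.497%.

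**Figure D2:**
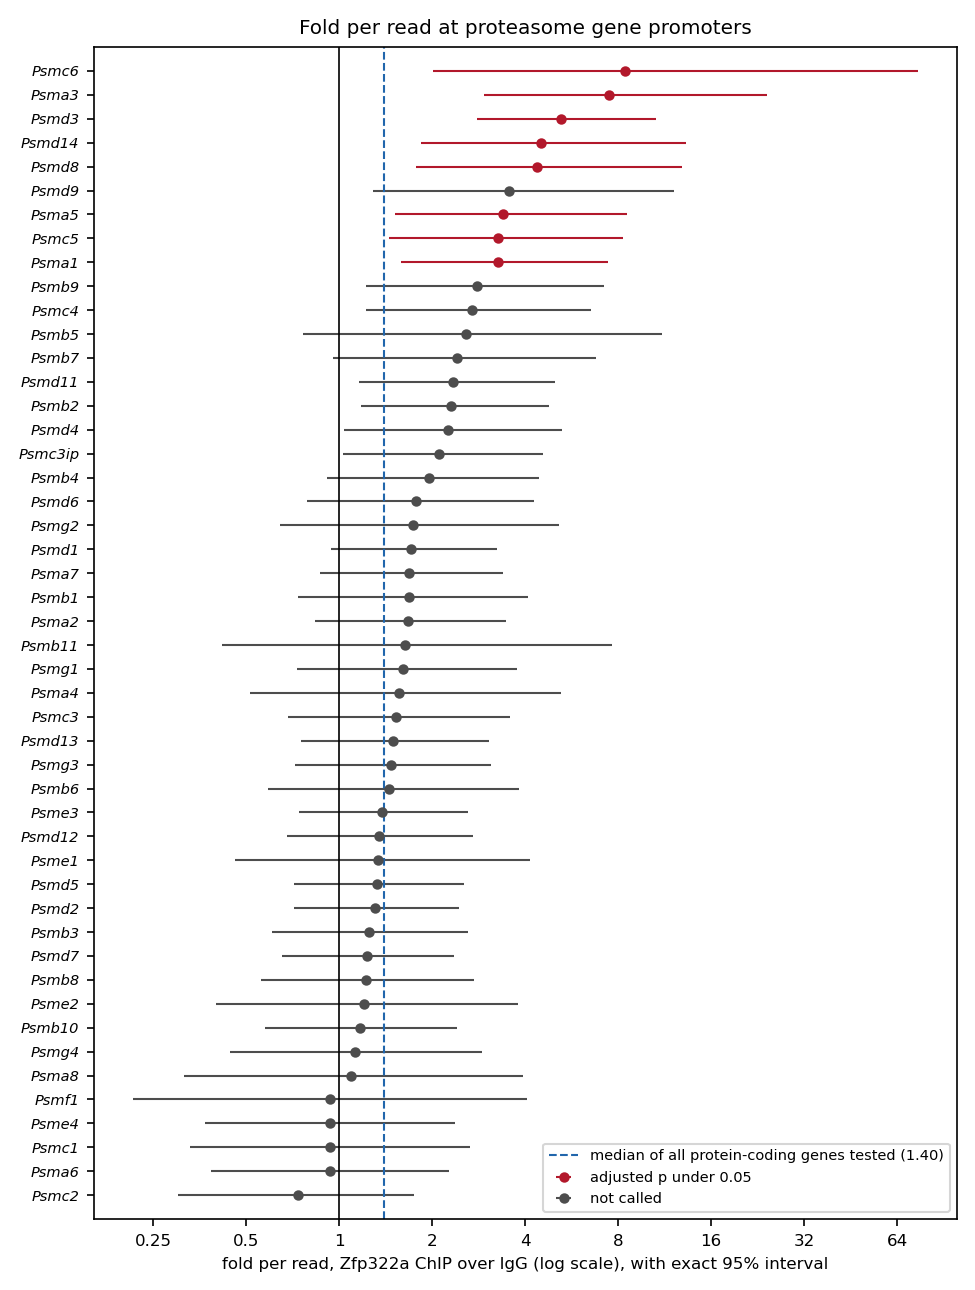
Fold per read of Zfp322a ChIP over IgG on a log scale at the 48 proteasome genes tested, with exact 95% intervals for counting error. Red marks the 8 genes called higher, the solid line equal reads per library total and the dashed line the median of all protein-coding genes tested, 1.401.

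The alpha subunits, which form the outer rings and the gate of the core barrel, held 3 of the 8 genes called, out of 8 alpha subunits tested, against the 5.13% of all genes tested. *Psma3* had 40 Zfp322a reads and 5 IgG reads, so that its fold was 7.47 (95% interval 2.95 to 24.3) with an adjusted p of 6.88e-05 in the exact test. Over the windows of all its start sites its fold was 4.79. *Psma1* had 35 and 10 reads, a fold of 3.27 (1.59 to 7.40) and an adjusted p of 1.65e-02 in the exact test. *Psma5* had 29 and 8 reads, a fold of 3.39 (1.51 to 8.57) and an adjusted p of 3.45e-02 in the exact test. No order among these 3 genes can be read, since each interval overlaps the others. At *Psma6*, another constitutive alpha subunit, both libraries had 12 reads. *Psma2* had 25 and 14 reads and *Psma7* 27 and 15, both with intervals that include 1. *Psma8*, the form of testis, had 7 Zfp322a and 6 IgG reads.

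The 7 constitutive beta subunits had folds per read from 1.25 at *Psmb3* to 2.57 at *Psmb5* and a median of 1.95, so that all 7 were above 1, against 73.9% of all genes tested. In the exact test 0 of the 7 were called higher, which with 5.13% of all genes called says nothing particular of them. The protease sites lie on *Psmb5*, *Psmb6* and *Psmb7*, which had 11, 14 and 18 Zfp322a reads against 4, 9 and 7 IgG reads. *Psmb2* had the most Zfp322a reads of the group, 32 against 13 (fold 2.30, interval 1.17 to 4.77), with an adjusted p of 1.16e-01 in the exact test. Among the immune-inducible forms, *Psmb9* had 24 and 8 reads (fold 2.80, interval 1.22 to 7.22), *Psmb8* 17 and 13, and *Psmb10* 20 and 16. *Psmb11*, the form of the thymus, had 7 and 4 reads. None of these 4 was called in the exact test, and the adjusted p of *Psmb9* was 1.28e-01.

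The ATPases of the regulatory particle ranged from the lowest to the highest fold of the genes tested. *Psmc6* had 18 Zfp322a reads and 2 IgG reads, the highest fold among the genes tested at 8.41, but with an interval of 2.01 to 74.7 because of the 2 IgG reads, and an adjusted p of 1.65e-02 in the exact test. In windows of -500 to 500 bp its fold was 4.67, below those of *Psmd3* (7.24) and *Psma3* (5.79), and it was not called (adjusted p = 0.225 in the exact test). From -1000 to 100 bp its fold was 19.6, and it was again not called (adjusted p = 0.0674 in the exact test). *Psmc5* had 28 and 8 reads, a fold of 3.27 (1.45 to 8.30) and an adjusted p of 4.43e-02 in the exact test, close to the threshold. *Psmc2* was at the other end with 11 Zfp322a reads and 14 IgG reads (fold 0.734, interval 0.302 to 1.74), the lowest fold among the 48 genes tested. *Psmc1*, from the same ATPase ring, had 9 reads in both libraries. The intervals of *Psmc2* and *Psmc5* overlap, and the difference between them was not tested. *Psmc4* had 26 and 9 reads (fold 2.70, interval 1.23 to 6.55), with an adjusted p of 1.15e-01 in the exact test.

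The non-ATPase subunits of the regulatory particle with a Psmd symbol held the other 3 genes called, out of 11 tested, against the 5.13% of all genes tested. All 11 of them had a fold above 1, against 73.9% of all genes tested. Subunits under other symbols are outside the gene set, among them *Adrm1*, with 23 and 22 reads and a fold of 0.977 (0.520 to 1.84), and *Shfm1*, with 32 and 11 reads and a fold of 2.72 (1.34 to 5.98). *Psmd3*, a scaffold subunit of the lid, had 67 Zfp322a reads and 12 IgG reads, the highest Zfp322a count of the 50 genes. Its fold per read was 5.22 (interval 2.80 to 10.6) and its adjusted p 1.07e-06 in the exact test. The fold depended on the window, at 3.19 over the windows of all its start sites and 8.87 from -1000 to 100 bp. *Psmd14*, which codes for the enzyme that cuts ubiquitin chains off the substrate, had 29 and 6 reads, a fold of 4.52 (1.84 to 13.3) and an adjusted p of 1.06e-02 in the exact test. *Psmd8*, another lid subunit, had 28 and 6 reads, a fold of 4.36 (1.77 to 12.9) and an adjusted p of 1.50e-02 in the exact test. Both had 6 IgG reads, the lowest count of the group in that library, while their Zfp322a counts lay within the range of the genes not called. *Psmd2* had 28 Zfp322a reads, as many as *Psmd8*, but 20 IgG reads, and *Psmd7* had 25 and 19. *Psmd4*, which codes for a ubiquitin receptor, had 24 and 10 reads (fold 2.24, interval 1.03 to 5.25). *Psmd1* had 33 and 18 reads and a fold of 1.71 (0.937 to 3.23).

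Of the genes for proteins that act on the proteasome without being part of the constitutive particle, none was called higher in the exact test, which with so few genes and 5.13% of all genes called says nothing particular of them. Of the assembly chaperones of the regulatory particle, *Psmd9* had 19 and 5 reads (fold 3.55, interval 1.28 to 12.2, adjusted p = 9.29e-02 in the exact test) and *Psmd5* 27 and 19. *Psmd10*, on the X chromosome, had 6 and 3 reads, too few to be tested, and the whole X chromosome had a fold per read of 1.32. The 4 activator genes, *Psme1* to *Psme4*, had folds from 0.934 to 1.38, and their summed reads, 58 and 44, gave 1.23 (interval 0.818 to 1.87). *Psmf1*, the inhibitor, had 5 reads in both libraries, and *Psme4* had 11 in both. The assembly chaperones of the core, *Psmg1* to *Psmg4*, had folds from 1.12 to 1.74, with 19 and 11 reads at *Psmg1*. *Psmc3ip* had 27 and 12 reads (fold 2.10, interval 1.03 to 4.56), and *Psme2b-ps* had 0 Zfp322a and 2 IgG reads and was not tested. Summed over the 19 genes of the core barrel the fold was 1.95 (1.64 to 2.34), and over the 17 subunits of the regulatory particle 2.09 (1.76 to 2.48), so these intervals overlap widely.

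Putative binding sites were then rebuilt with the height and fold criteria of the study alone. The peak detection that came before them in the study, which tested whether reads of opposite strands lay apart, was left out, so these sites need not be those of the study. With every read lengthened to 300 bp, a stretch counted as a site where the pile of Zfp322a reads was 9 high or more and the IgG pile inside it was no more than its height divided by 3. The windows of 12 of the 50 genes overlapped a site, or 24%, against 11.3% of all protein-coding genes. The share with a site rose with the reads in the window, and the median of reads in both libraries together was 34 over the proteasome genes tested and 26 over all genes tested. Among genes with 10 to 19 reads 0 of 8 proteasome genes had a site against 0.756% of all such genes, with 20 to 29 reads 0 of 12 against 11.1%, with 30 to 39 reads 7 of 17 against 25.5%, with 40 to 49 reads 3 of 9 against 34.8%, and with 50 reads or more 2 of 2 against 41.0%. The proteasome genes lay above the share of all genes in the classes of 30 to 39 and of 50 or more reads and below it in the others. With the libraries exchanged, a check added after seeing the data, 0 of the 50 genes and 0.409% of all genes had a site. The 12 genes were *Psma1*, *Psma2*, *Psma3*, *Psma7*, *Psmb9*, *Psmc4*, *Psmc5*, *Psmd1*, *Psmd3*, *Psmd8*, *Psmd14* and *Psmg1*, so 6 of the 8 genes called by reads had one. *Psmc6*, called by reads but without a site, reached a height of 8 reads. *Psma5*, also without a site, reached 12, and the highest IgG pile anywhere in its window was 6.

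The highest site lay at *Psmd3*, at chr11:98543679-98544219, where the Zfp322a pile was 49 reads high and the IgG pile 6, with its summit in the 5′ UTR, 78 bp after the TSS. At *Psma3* the site spanned chr12:72075581-72076150, with heights of 24 and 4 reads and its summit in an intron, 267 bp after the TSS. At *Psmd14* it spanned chr2:61549679-61550105 with heights of 21 and 4 reads, and its summit was in the 5′ UTR, 97 bp after the TSS. These 3 sites and that of *Psma1* (chr7:121419398-121419862, 19 and 3 reads) were the only ones besides *Psmc4* (9 and 1) to reach 5 times the IgG height. The site of *Psmd8*, at chr7:29965517-29965869 with its summit in a coding exon, had heights of 14 and 3 reads. Sites of 9 or 10 reads, which lie at the threshold, were those of *Psma7* (9 and 3), *Psmb9* (9 and 3), *Psmc4* and *Psmg1* (10 and 3). *Psma2* had a pile of 15 reads, but its IgG height of 5 put it exactly at the threshold of 3 times, as at *Psma7* and *Psmb9*. *Psmd1* had heights of 12 and 3 reads and *Psmc5* of 11 and 3.

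The authors also deposited numbered regions, called from the same reads and so no independent evidence. They form 754 distinct intervals, and 3.07% of all protein-coding genes had one in the window. This held for 4 of the 50 proteasome genes (8%), namely *Psma1*, *Psma3*, *Psmd8* and *Psmd14*. In the other gene sets described below the share was higher. It was 15.7% for the cytosolic ribosomal protein genes (13 of 83) and 11.8% for the genes around the proteasome (4 of 34). The window of *Psmd3* overlapped none of the deposited regions, although its site was the highest of the proteasome genes. The deposited list is much shorter than the 3875 sites rebuilt here, and the full list of sites of the study was not used here, so absence from the deposited list does not show that the study had no site there.

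**Figure D3:**
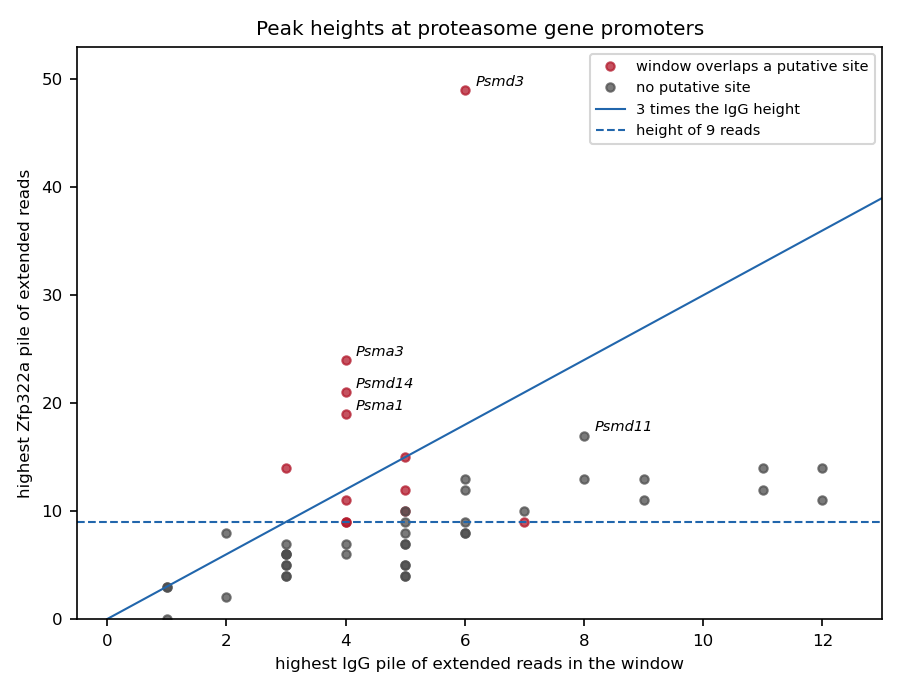
Highest pile of extended reads in the window of each proteasome gene, Zfp322a ChIP on the vertical and IgG on the horizontal axis, in reads. Genes with a putative site are red; some red points lie under the line for 3 times the IgG height because the IgG height of a site is taken inside the site, and the line here uses the whole window. Points can cover each other.

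Both libraries had more reads near the TSS than away from it, and the largest number of excess Zfp322a reads lay near the TSS too. With each read placed at the middle of a 300-bp fragment, the bin from 100 to 200 bp after the TSS held 133 Zfp322a and 51 IgG reads summed over the 50 genes, which is a fold of 2.44 (1.75 to 3.43). The bin from 0 to 100 bp held 129 and 61 reads, a fold of 1.98 (1.45 to 2.73). Over all protein-coding genes the folds of the same bins were 1.60 and 1.65. Bins with few reads away from the TSS had folds as high, such as 3.34 (1.403 to 9.14) from -1000 to -900 bp with 25 and 7 reads, and 2.90 (1.38 to 6.62) from 1800 to 1900 bp. In the 4000 bp upstream of the windows the proteasome genes had 581 and 485 reads, a fold of 1.12 (0.990 to 1.27), and in the gene bodies beyond the windows 2081 and 1838 reads, a fold of 1.06 (0.993 to 1.13). For all protein-coding genes these folds were 1.09 and 1.015. The 8 genes called higher, chosen by their 274 and 57 reads in the windows, had 70 and 69 reads in the 4000 bp upstream (fold 0.948, interval 0.670 to 1.34) and 344 and 274 reads in the gene bodies (fold 1.17, interval 0.998 to 1.38).

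**Figure D4:**
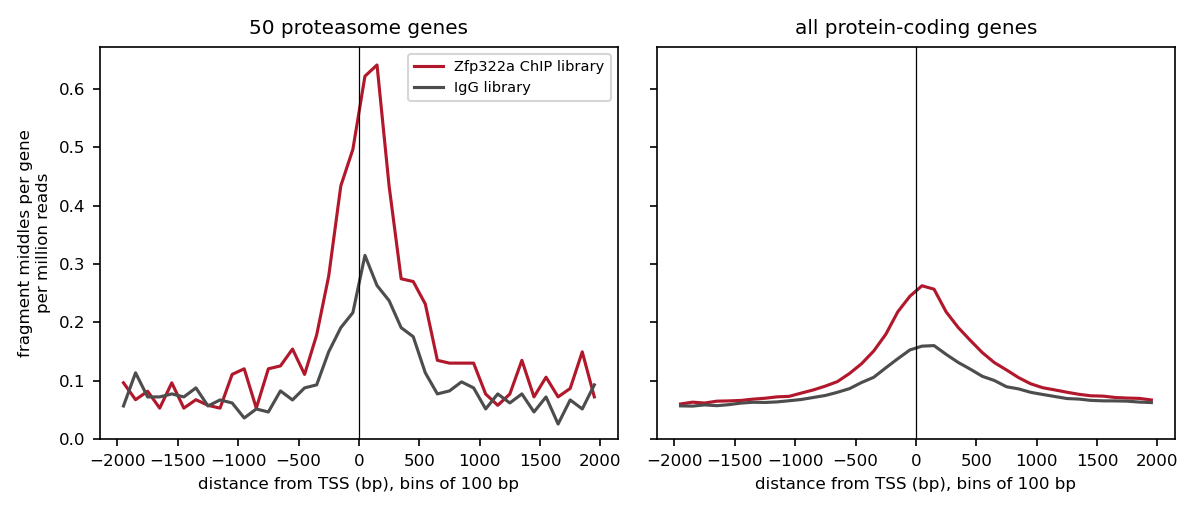
Middles of 300-bp fragments per gene, scaled to the depth of the library, in bins of 100 bp around the TSS, for the 50 proteasome genes and for all protein-coding genes. Both libraries peak at the TSS, and the Zfp322a library lies above the IgG library there in both panels.

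Where a window held a site, the summit of its highest site lay after the TSS at all 12 proteasome genes. The distance ran from 34 bp at *Psma2* to 578 bp at *Psma7*, with a median of 86 bp. At *Psmb9* it was 191 bp, but the TSS of the neighbouring gene *Tap1* was nearer to that summit, at 20 bp. Over the 2518 protein-coding genes with a site, 59.6% of summits lay after the TSS and the median was 54.5 bp. *Psmd1* had a second, lower site, 450 bp before its TSS, with heights of 11 and 3 reads. At *Psmd3*, 37 Zfp322a reads on the strand of the gene had a median position 18 bp before the TSS, at -18, and 30 reads on the other strand had a median of 151.5 bp after it. At *Psma3* the medians were 39 bp for 26 reads and 407 bp for 14 reads. The median on the strand of the gene was the more upstream at 8 of the 8 genes called, and also at 32 of the 41 other proteasome genes with Zfp322a reads on both strands.

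Of the 50 genes, 10 had the TSS of another protein-coding gene on the opposite strand within 1000 bp, so that reads there cannot be assigned to one of the promoters. *Psmc5* was the only one of the 8 genes called that had such a neighbour, *Ftsj3*, at a distance of 75 bp. Among the genes with a site this also held for *Psma2* (*Mrpl32*, 217 bp), *Psma7* (*Ss18l1*, 76 bp) and *Psmb9* (*Tap1*, 211 bp), the last a pair of antigen-processing genes. The summit of the site counted for *Psmb9* lay 191 bp from its TSS and 20 bp from that of *Tap1*. *Psmc2*, with the lowest fold, shared its window with *Dnajc2* at 32 bp.

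The windows of the proteasome genes had a median GC content of 50.6%, close to the 51.2% of all protein-coding genes, and a median ratio of observed to expected CpG of 0.618 against 0.468. The fold per read of all genes depended on GC content. It was 0.806 in the class of lowest GC content, from 27.7 to 37.1%, and 1.55 in the class from 51.2 to 52.1%. Classes with the GC content of the 8 genes called had folds of 1.43 to 1.55. With the fold divided by that of its class, which also takes out the excess at promoters in general, the median was 1.165 over the proteasome genes tested and 0.967 over all genes tested, and *Psma3* and *Psmd3* were again the only proteasome genes called higher, against 0.372% of all genes tested.

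In the 300 bases that begin at -250 bp from the TSS, 18 of the 50 proteasome promoters (36%) held CCGGAAG, against 10.9% of all protein-coding promoters, searched on both strands. The 18 include *Psmc3ip* and *Psme2b-ps*. CCGGAAG, AANATGGCG, GCATGCGC and CACGTG contain CpG, and the median CpG ratio of the windows was 0.618 for proteasome genes and 0.468 for all genes. Shares among promoters of like CpG ratio were not compared. AANATGGCG was held by 6 (12%) against 3.23%, namely *Psmb5*, *Psmb6*, *Psmc5*, *Psmd7*, *Psmd8* and *Psmd11*. CCAAT was found in 18 (36%) against 37.7%, the antioxidant response element core in 17 (34%) against 28.1%, and GCATGCGC in 3 (6%) against 3.34%. The E-box, CACGTG, was found in 7 (14%) of the proteasome promoters against 7.76% of all promoters. The TATA box, searched as TATAAA, was found in 5 (10%) against 13.5%. The first motif of the study, read from its logo and searched by that consensus, was found in 6 (12%) against 18.0%. Among the 8 proteasome genes called higher, CCAAT was present at *Psma1*, *Psma3* and *Psmd14*, against 39.9% of all genes called higher, and AANATGGCG at *Psmc5* and *Psmd8*, against 6.39%. The antioxidant response element core was present at *Psma5* and *Psmc6*, against 34.6%, CCGGAAG at *Psmc6*, against 18.2%, and GCATGCGC at *Psmc5*, against 6.39%. The E-box, the TATA box and the first motif of the study were each present at 0 of the 8, against 12.3%, 5.41% and 16.8% of all genes called higher. The differences between these shares were not tested.

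The genes around the proteasome were followed in a list of 35 genes for ubiquitin, its activation, shuttling and removal, the control of proteasome genes, and proteasome subunits and an assembly factor without a Psm symbol (*Adrm1*, *Shfm1* and *Pomp*), of which 34 were matched by symbol. In the exact test 7 of the 34 were called higher (20.6%, against the 5.13% of all genes) and 0 lower, with 14 higher (41.2%, against 17.4% of all genes tested) and 0 lower at an unadjusted p under 0.05. Their median fold per read was 1.88. Divided by the fold of the GC class the median was 1.27, against 0.967 over all genes tested. The list had a median of 39.5 reads in both libraries together, against 26 over all genes tested. Of all genes with 30 to 39 reads 5.39% were called higher, and with 40 to 49 reads 11.7%. *Vcp*, the ATPase that pulls ubiquitylated proteins out of membranes and complexes, had 78 Zfp322a and 13 IgG reads, a fold of 5.61 (3.09 to 10.99) and an adjusted p of 1.80e-08 in the exact test. *Usp14* and *Uchl5*, deubiquitinating enzymes that dock on the regulatory particle, had 34 and 10 reads and 40 and 11 reads, with folds of 3.18 (1.53 to 7.21) and 3.397 (1.71 to 7.34). *Zfand5* had 33 and 8 reads (fold 3.85, interval 1.75 to 9.66) and *Zfand2a*, a gene of the same zinc-finger family, 40 and 12 (3.11, 1.60 to 6.52). The ubiquitin ligase gene *Ube3a* had 45 and 17 reads and *Nfe2l2*, which codes for an activator of antioxidant genes, had 55 and 20, with folds of 2.47 (1.39 to 4.61) and 2.57 (1.52 to 4.53). All 7 had a putative site in the window, as did 16 of the 34 genes (47.1%, against 11.3% of all protein-coding genes). The share with a site was 25.5% among all genes with 30 to 39 reads and 34.8% among those with 40 to 49.

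The cytosolic ribosomal protein genes, the other large set of housekeeping subunits followed, had counts of the same order. Of 82 tested, 7 were called higher (8.54%, against 5.13% of all genes) and 0 lower in the exact test, with 31 higher (37.8%, against 17.4%) and 0 lower at an unadjusted p under 0.05. Their median fold per read was 1.65 and that of the proteasome genes 1.65, and 24 of 83 (28.9%, against 11.3% of all protein-coding genes) had a putative site. The ribosomal protein genes tested had a median of 36 reads in both libraries together, against 26 over all genes tested. The difference between the ribosomal protein and proteasome gene sets was not tested.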

How the data were processed

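Single reads of 36 bp from the Genome Analyzer IIx were mapped to mm9 by the authors, whose processing notes name CASAVA 1.4, BWA and Partek 6.6. They deposited 1 line for each mapped read, with its mapping quality score (unit score), and, for the numbered regions of their peak detection, the positions of the reads inside them. The matching list of IgG reads inside these regions was not used. Whether duplicate reads were removed is not stated; in each library 0 reads shared 5′ position and strand with another. Mapped reads of any quality numbered 5187475 (Zfp322a) and 4843481 (IgG).

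Reads of mapping quality 25 or more were counted with Python 3.11.15, numpy 2.4.6, pandas 2.3.3 and scipy 1.17.1, and drawn with matplotlib 3.10.9. Genes were taken from the GENCODE annotation of the same build. Records with 1 symbol, chromosome and strand at most 10000 bp apart were joined, which turned 22359 into 22235. Site stretches at most 300 bp apart were joined, an IgG height of 0 was taken as 1, and IgG heights were not scaled. Where a gene had 0 IgG reads, 0.5 was added to both counts for its fold. Tests were run across all genes. They were also run on simulated counts with counting error only, in which most genes had a fold of 1. Such counts hold neither the spread between replicate libraries nor the excess at promoters in general, so that check covers neither.

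Members of the gene set, gene lists, motifs and tests were chosen with earlier results of these data known. Read counts are given for each gene called in either direction, with a site or a deposited region, with 1 of the 3 lowest folds, below the filter, or of tissue-specific or immune-inducible form, and for *Psmc3ip*. From the wider list, the genes called and the highest 3 by fold are named. Genes named beyond this rule were chosen after their values were seen. Alternatives were other mapping qualities, windows, start sites, scalings, read placements, filters and site criteria.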

Additional observations from a re-analysis of the deposited data

How the results depend on the processing

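Each antibody had 1 library, so no replicate could be left out. No paired analysis was possible because the libraries carry no replicates. Of the 10 alternatives to the count of reads, 3 moved the number of proteasome genes called higher from 8 by over 1.5 times. A window of -1000 to 100 bp left 1, *Psmd3*, with 241 of all genes called against 814; the other 7 had folds of 3.74 to 19.6 and adjusted p of 0.0617 to 0.280 in the exact test. Scaling by the reads in all coding windows left 2 (median fold 1.166, 62 of all genes called), and division by the fold of the GC class left 2 (median fold 1.165, 59 of all genes). The class folds also hold the excess of reads at promoters in general, so the last alternative does not set GC content apart from that scaling. Under the other 7 alternatives 6 to 8 were called. In windows of -500 to 500 bp the number was again 8, but *Psmc5* and *Psmc6* were lost and *Psmb9* and *Psmc4* gained. The cause of the fall to 1 was not tested. *Psmd3* was called under all 10 alternatives, *Psma3* under 9 and *Psmc5* under 4, and none of the 8 folds fell below 1 under any of the 10. The number of genes with a putative site was 5 at a height fold of at least 5 (988 of all genes, against 2518), 4 with deposited regions in place of sites (682) and 0 with the libraries exchanged (91), and 9 to 18 under the other 7 alternatives. With reads extended to 200 bp the number was again 12, but *Psma2*, *Psma7*, *Psmb9*, *Psmc4* and *Psmg1* were lost and *Psma5*, *Psmc3ip*, *Psmd5*, *Psmd11* and *Psme3* gained. With IgG heights scaled, *Psma2*, *Psma7* and *Psmb9* were lost. A height of at least 11 reads gave 10 genes (1607 of all genes), with *Psma7*, *Psmb9*, *Psmc4* and *Psmg1* lost and *Psma5* and *Psmd11* gained, and a height fold of at least 2 gave 18 (3903). At a median of 34 reads for each proteasome gene tested, the interval of a fold spans several-fold, and a gene not called may still differ.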

Other observations

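The 50 proteasome genes have 96 annotated start sites of protein-coding transcripts, and 25 of the genes have more than 1. *Psmf1*, the inhibitor, had 5 reads in each library at the start site counted above. At its other start site, 2876 bp downstream, the counts were 17 in Zfp322a ChIP and 8 in IgG, which gives a fold of 1.99 with an exact 95% interval of 0.812 to 5.32. At the second start site of *Psmd3*, 5233 bp downstream, 8 Zfp322a and 10 IgG reads were counted.

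A putative site also lay inside *Psmd1* at chr1:88051104-88051516, with heights of 17 and 4 reads, 90035 bp from the start site of *Psmd1* and 144 bp from that of *Armc9*. Another, at chr11:100948734-100948820 with heights of 10 and 2 reads, lay outside *Psmc3ip* and 179 bp from the start site of *Mlx*.

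The printed promoter of *Psmd3* holds a direct repeat, in which 28 of 30 bases match those 45 bases away. A repeat of at least 27 of 30 bases at a distance of 31 to 100 bases was found in 177 of 22235 promoters of 180 bases (0.796%), and *Psmd3* was the 1 proteasome gene among them. The search was made after the sequence had been seen.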
